A study of Mus musculus with 17 samples.

Results

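The genes described here serve the entry, folding and quality control of proteins in the endoplasmic reticulum, together with the regulators that adjust this capacity. The list of 44 such genes was drawn up with earlier results of these data known, and a gene was kept where a probe set of the array carries its symbol alone. Of the 44, 41 were matched by symbol and Ero1l by its current symbol Ero1a, so 42 of the 12393 genes tested in all are members. Sec61g was met only on probe sets with several symbols and Fkbp10 on none in the annotation used, and neither was analysed here. The rule for keeping a gene uses no comparison between groups. Where a gene has several probe sets the one with the highest average level on the 17 arrays stands for it.

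Gene expression was measured on 17 Affymetrix arrays of tibialis anterior, the fast-fibre muscle along the shin, 1 array for each mouse sample. The 5 fiona arrays hold muscle of a transgenic line that expresses utrophin, a relative of dystrophin, at a high level on the mdx background. The mutation of the dystrophin gene is therefore shared by the fiona and mdx groups. The 6 mdx arrays hold muscle of mice with that mutation and no transgene, and the 6 normal arrays hold muscle with neither. By the labels all animals were males aged 56 days, both muscles of an animal were pooled, and each array was a biological replicate. The labels do not give the promoter of the transgene. All values are log2 expression values as deposited, and a difference of 1 on this scale is a 2-fold change.

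The endoplasmic reticulum is the first station of most proteins that are secreted or built into the cell membrane. A growing chain with a signal sequence is brought to the membrane by the signal recognition particle, threaded through the Sec61 channel, freed of its signal peptide, glycosylated and folded by chaperones and isomerases. Unfolded protein that accumulates there triggers the unfolded protein response, in which the factors Xbp1, Atf6 and Atf4 raise the transcription of chaperones, of degradation factors and of Ddit3. Muscle fibres hold most of their reticulum as sarcoplasmic reticulum for calcium release, whereas fibroblasts and macrophages secrete large amounts of protein.

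Dmd, the dystrophin gene, averaged 3.39 ± 0.14 in fiona, 3.35 ± 0.10 in mdx and 6.64 ± 0.20 in normal muscle on one of its 3 probe sets (SD, n = 5, 6 and 6), and was called lower in mdx than in normal muscle on 2 of the 3. Utrn, the utrophin gene, was called higher in fiona than in mdx muscle on 2 of its 3 probe sets, with averages of 4.30 ± 1.90 in fiona, 2.07 ± 0.02 in mdx and 2.12 ± 0.04 in normal muscle on one of them. On the remaining and brightest probe set Utrn averaged 6.57 ± 0.82 in fiona, 6.98 ± 0.39 in mdx and 6.81 ± 0.26 in normal muscle, with no call. Array medians lay between 3.52 and 3.82 and correlations between arrays between 0.939 and 0.996. With each group centred on its own mean, the first principal component (42.5% of the variance left) parted the arrays into 2 sets. Set 1 held 8 arrays (fiona 1 and 4, mdx 3, 4 and 5, normal 3, 4 and 5) and set 2 the other 9, and no label names a batch. On 7 arrays (fiona 1, 2, 3 and 5, mdx 1 and 4, normal 6) Xist was high and the Y-linked Eif2s3y low, against the label, and mdx 6 carried both transcripts. Array mdx 1 stood apart, with a Gapdh signal 2.54 higher at the 3′ than at the 5′ probe set, against -0.43 to 0.06 on the other arrays.

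Ssr1 and Sec61a1 of translocation, Spcs3 of signal peptidase, the BiP-binding factor Manf and the isomerases Pdia6 and Ppib rose in mdx muscle and were lower in fiona muscle. Of 11 chaperones and co-chaperones, 1 (Manf) was called higher in mdx muscle and 10 had positive differences. Hspa5, Hsp90b1, Calr, Canx and Calu were not called higher, though all had positive differences (0.32 to 0.72). Likewise 0 of the 5 regulators of the unfolded protein response were called higher, with differences of -0.56 to 0.04. With 3.22% of all genes called higher, 0 of 5 says little. Between mdx and normal muscle, 6 of 42 members were called higher and 0 lower at an adjusted p under 0.05 in limma, where 3.22% of all genes tested were called higher and 1.44% lower (4.66% in either direction). The called members were Ssr1, Spcs3, Pdia6, Sec61a1, Manf and Ppib. Their differences lay between 0.85 and 1.37. The median difference over the 42 members was 0.29, and that of all genes was -0.04. The difference was positive for 31 members and negative for 11.

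Between fiona and mdx muscle, 12 of 42 members were called lower, where 6.79% of all genes were, and 2 of 42 were called higher, where 32.1% were (38.9% of all genes in either direction). The members called lower were Ssr1, Pdia6, Spcs3, Manf, Rpn2, Ppib, Hsp90b1, Sec61a1, Calu, Ssr4, Spcs1 and Canx, and those called higher were Ddit3 and Fkbp11. The median difference was -0.40 over the members and 0.08 over all genes. The split of all genes into 3977 higher and 841 lower depended on scaling and on dim genes. It was 654 higher and 784 lower with each array centred on its median, which moved the median difference of all genes by -0.12, 1336 and 569 after quantile normalization, and 1392 and 707 without dim genes. After centring, the 12 members called lower kept their calls and Ddit3 and Fkbp11 lost theirs. After quantile normalization 8 of the 12 kept their calls. Both comparisons share the mdx arrays, so the values of a member in them are given side by side and are not independent.

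**Figure D1:**
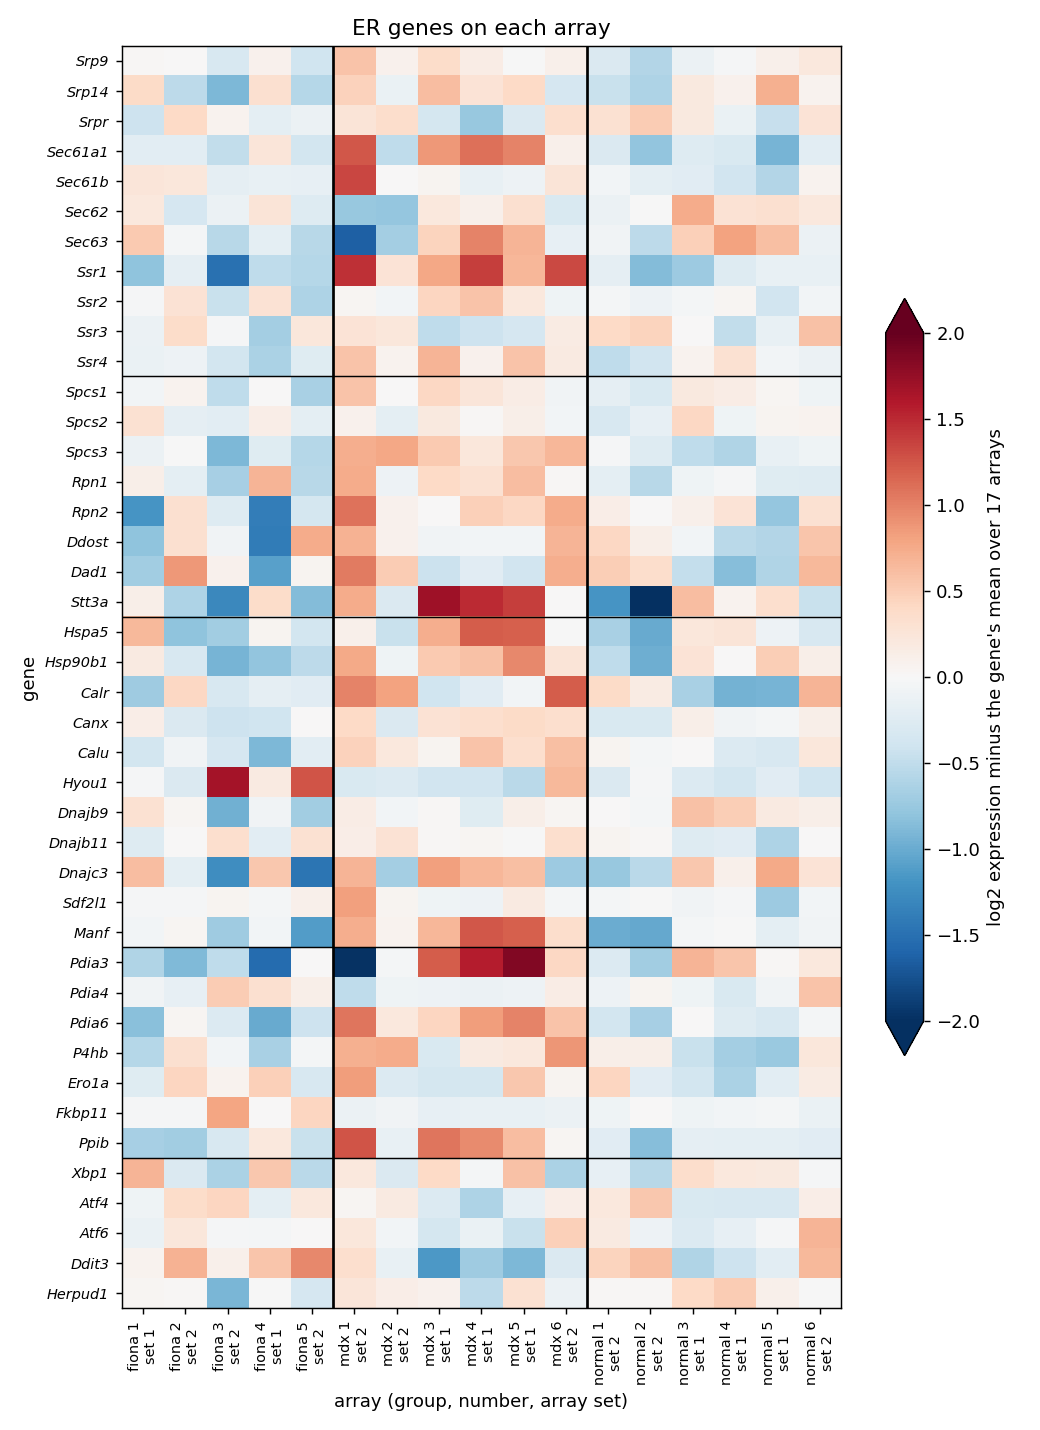
Log2 expression of the 42 members (listed down the page by role) on each of the 17 arrays (across: fiona, mdx, normal, with the array set), shown as the difference from the mean of the gene over all arrays, from blue (lower) to red (higher), with colours ending at -2 and 2. Ssr1, Spcs3 and Pdia6 are red on the mdx arrays. Hspa5, Stt3a, Ddost and Dad1 follow the array sets within each group, and Calr within the mdx and normal groups.

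Between fiona and normal muscle, 0 of 42 members and 0 of 12393 genes were called in limma (0% of all genes). Dmd was among the genes not called, with a difference of -3.30 (adjusted p = 0.106) on the probe set that stood for it. On another, tested over all probe sets, it was -3.25 (adjusted p = 9.32e-12). The 0 calls therefore do not show that the 2 groups are alike. At an unadjusted p under 0.05 stood 2626 genes, 5 members among them. Those 5 were Hyou1 (difference 0.82), Fkbp11 (0.30), Calu (-0.32), Herpud1 (-0.41) and Dnajb9 (-0.50), with adjusted p-values between 0.21 and 0.221. The median difference of the members was -0.06 and that of all genes 0.04. For Ssr1 the difference of fiona from normal muscle was -0.32 with a 95% interval of -0.86 to 0.22, and for Sec61a1 it was 0.26 with an interval of -0.33 to 0.85. With the array set as a block 3 genes were called higher and 16 lower, without array fiona 2 856 and 118, and 0 members in either case.

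Markers of other cells moved with these differences. Of 17 macrophage genes, 15 were lower in fiona than in mdx samples and 14 higher in mdx than in normal muscle. Their summed level on the linear scale ranged from 1038 to 2322 on the fiona, 10530 to 24062 on the mdx and 797 to 2173 on the normal arrays, and Cd68 and Cd14 were at or under the control level on all fiona and all normal arrays. The control level is the median of 15 bacterial probe sets with no added target on each array, 2.64 to 2.99. Of 15 fibroblast and matrix genes, 11 were lower in fiona than in mdx samples and 7 higher in mdx than in normal muscle, with sums of 5706 to 23721, 28913 to 56479 and 12415 to 26486 on fiona, mdx and normal arrays and 0 genes at the control level throughout a group. Of 8 genes of regenerating fibres, 7 were lower in fiona than in mdx muscle and 6 higher in mdx than in normal muscle, with sums of 288 to 420, 1017 to 11182 and 207 to 273. The part of these cells in the differences of the members was not tested. In bulk muscle, fewer cells of a type and less RNA per cell cannot be told apart.

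Genes of plasma and B cells, which are rich in rough reticulum, were not among those higher in mdx muscle. Of 8 measured, 0 were called between mdx and normal muscle and 5 were called higher in fiona than in mdx muscle, with sums of 126 to 303 on fiona, 176 to 271 on mdx and 171 to 322 on normal arrays. Cd79a, Tnfrsf17 and Pou2af1 were at or under the control level on every array. Of 13 genes of mature muscle fibres, 0 were called between mdx and normal muscle and 2 (Mb and Myh1) were higher in fiona than in mdx muscle. Of the other lists, the tendon and cartilage list had 1 gene, Prg4, called higher in mdx than in normal muscle and lower in fiona than in mdx samples. The lists for T and NK cells, neutrophils and mast cells, endothelium, adipocytes, erythroid cells, Schwann cells and epidermis had 0 calls between mdx and normal muscle. In the same order they had 5 of 8, 0 of 8, 0 of 7, 1 of 4, 1 of 4, 1 of 3 and 3 of 5 genes called higher in fiona than in mdx muscle, and 0 lower. Over all genes 32.1% were called higher there, a share that depended on scaling and on dim genes. The control level was higher on the fiona arrays (2.753 to 2.991) than on the mdx arrays (2.647 to 2.750). Its part in these calls was not tested. The median differences were 0.20 for T and NK cells, 0.10 for epidermis and 0.10 for plasma and B cells, against 0.08 for all genes. Cd3d, Nkg7, Gzma, Krt14 and Krt1 were at or under the control level on every array.

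Among the 11 genes of targeting and translocation, 2 were higher in mdx than in normal muscle and 3 lower in fiona than in mdx samples, at group medians of 0.28 and -0.29. Here and for the groups below, 3.22% of all genes were called higher in the first comparison. In the second 6.79% were called lower and 32.1% higher. The calls of this group fell on the translocon-associated complex, which sits beside the channel and helps certain signal sequences engage it, and on the channel itself. Ssr1, its alpha subunit (probe set 1417763_at), measured 5.91, 6.53, 5.21, 6.20 and 6.13 on the fiona arrays, between 6.99 and 8.17 on the mdx arrays (median 7.75) and between 5.84 and 6.56 on the normal arrays (median 6.48). All mdx arrays lay above all fiona and all normal arrays. Its level was lower by 1.69 on the log2 scale in fiona than in mdx muscle (difference -1.69, SE 0.25, 3.23-fold, adjusted p = 0.000999) and higher by 1.37 in mdx than in normal muscle (SE 0.24, 2.58-fold, adjusted p = 0.00299). Both calls held with each of the 17 arrays left out in turn. The other probe sets of Ssr1 are dimmer and did not show this. Probe set 1417764_at, with a mean of 3.48, had a difference of -0.81 between mdx and normal muscle (adjusted p = 0.247), and with all its probe sets averaged the difference of Ssr1 was 0.20 (adjusted p = 0.341), against -0.61 between fiona and mdx muscle (adjusted p = 0.0113). Averaging the probe sets, dim ones included, also made the differences of Sec61a1, Ssr4, Spcs1 and Pdia6 between fiona and mdx muscle smaller, at -0.30, -0.19, -0.27 and -0.56, each still called.

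Sec61a1, which forms the pore of the channel, measured 6.88, 6.89, 6.60, 7.33 and 6.72 on the fiona arrays, 6.59 to 8.34 on the mdx arrays (median 8.02) and 6.16 to 6.89 on the normal arrays (median 6.79). Of the 6 mdx arrays, 5 lay above every normal array, and mdx 2 was within the range of the other groups. The difference was -0.84 between fiona and mdx muscle (SE 0.28, adjusted p = 0.0278) and 1.10 between mdx and normal muscle (SE 0.26, 2.14-fold, adjusted p = 0.0243), and each call was lost in 6 of the 17 fits without 1 array. These left out fiona 3 or 5 or mdx 1, 3, 4 or 5 in the first comparison (adjusted p up to 0.0662), and mdx 1, 3, 4 or 5 or normal 2 or 5 in the second (up to 0.0612). Ssr4, the delta subunit of the translocon-associated complex, measured 9.07, 9.11, 8.84, 8.58 and 8.97 on the fiona arrays, 9.28 to 9.89 on the mdx arrays (median 9.58) and 8.70 to 9.51 on the normal arrays (median 9.13). All fiona arrays were below all mdx arrays, and the mdx and normal arrays overlapped. It was lower in fiona than in mdx muscle (difference -0.65, SE 0.16, adjusted p = 0.0135), and its difference between mdx and normal muscle was 0.47 (adjusted p = 0.0956).

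The other subunits of these complexes were not called. Sec61b, a small subunit of the channel, had differences of -0.24 between fiona and mdx and 0.47 between mdx and normal muscle (adjusted p = 0.408 and 0.272), and mdx 1 held the highest value. Ssr2 and Ssr3, the beta and gamma subunits, differed by -0.29 and 0.05 between fiona and mdx muscle and by 0.28 and -0.23 between mdx and normal muscle. Sec62, a partner of the channel for small and loosely targeted proteins, differed by 0.15 and -0.44 in these comparisons, and Sec63, its J-domain partner, by -0.10 and -0.26. Srp9 and Srp14, which let the signal recognition particle pause translation, differed by -0.33 and -0.47 between fiona and mdx muscle and by 0.33 and 0.21 between mdx and normal muscle. The alpha subunit of the receptor for that particle, Srpr, differed by 0.02 and -0.20. The smallest adjusted p of these 8 genes was 0.0786, that of Srp9 between fiona and mdx muscle. A dimmer probe set of Srp14 passed in that comparison when tested over all probe sets (difference -0.50, adjusted p = 0.0219). So did a probe set of Srpr at or under the control level on every array (0.07, adjusted p = 0.0325).

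Of the 8 genes of signal peptidase and of oligosaccharyltransferase, which transfers the sugar tree to asparagine, 1 was called higher in mdx than in normal muscle and 3 lower in fiona than in mdx samples. The medians were 0.37 and -0.45. Spcs3, a subunit that signal peptidase needs for activity, measured 7.08, 7.19, 6.30, 6.96 and 6.63 on the fiona arrays, 7.42 to 7.97 on the mdx arrays (median 7.80) and 6.59 to 7.17 on the normal arrays (median 6.99). The mdx arrays did not overlap with either other group. Its difference was -0.94 between fiona and mdx muscle (SE 0.16, adjusted p = 0.0023) and 0.85 between mdx and normal muscle (SE 0.15, 1.80-fold, adjusted p = 0.00307), and both calls held without any 1 of the arrays.

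Spcs1, an accessory subunit of signal peptidase, measured 10.14, 10.27, 9.69, 10.19 and 9.54 on the fiona arrays, 10.13 to 10.76 on the mdx arrays (median 10.39) and 9.89 to 10.39 on the normal arrays (median 10.17). Only fiona 3 and 5 lay below all mdx arrays. The difference between fiona and mdx muscle was -0.45 (SE 0.15, adjusted p = 0.0298) and was not called without fiona 3, fiona 5, mdx 1, mdx 3 or mdx 4, 5 of the 17 fits without 1 array (adjusted p up to 0.0854). Rpn2, ribophorin II of oligosaccharyltransferase, measured 5.98, 7.48, 6.90, 5.78 and 6.80 on the fiona arrays, 7.16 to 8.24 on the mdx arrays (median 7.60) and 6.38 to 7.47 on the normal arrays (median 7.27). Of the 5 fiona arrays, 4 were below all mdx arrays and fiona 2 was among them. Its level was lower in fiona than in mdx muscle (difference -1.04, SE 0.30, adjusted p = 0.0168), and the difference between mdx and normal muscle was 0.46 (adjusted p = 0.368).

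Stt3a, the catalytic subunit that acts while a protein is still entering, had large differences and a wide spread. It averaged 6.96 ± 0.69 in fiona, 8.26 ± 0.83 in mdx and 6.96 ± 1.04 in normal muscle, with differences of -1.30 and 1.30 (adjusted p = 0.0557 and 0.169). Rpn1, ribophorin I, differed by -0.45 and 0.56 (adjusted p = 0.105 and 0.154). Other probe sets of these genes, tested over all probe sets, passed between fiona and mdx muscle, 1 of Stt3a (difference -1.31, adjusted p = 0.013) and 2 of Rpn1 (-0.70 and -0.84, adjusted p = 0.013 and 0.00952). Ddost and Dad1, which hold the enzyme together, differed by -0.45 and -0.36 between fiona and mdx muscle, and Spcs2 by -0.06, none of them called. The dimmer probe set of Spcs2 passed (difference -1.12, adjusted p = 0.013), so the probe sets of this gene disagree. The probe sets used for Stt3a, Rpn1, Srp14 and Ppib are of the type marked _x_at by the manufacturer, which can contain probes that match other transcripts too.

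**Figure D2:**
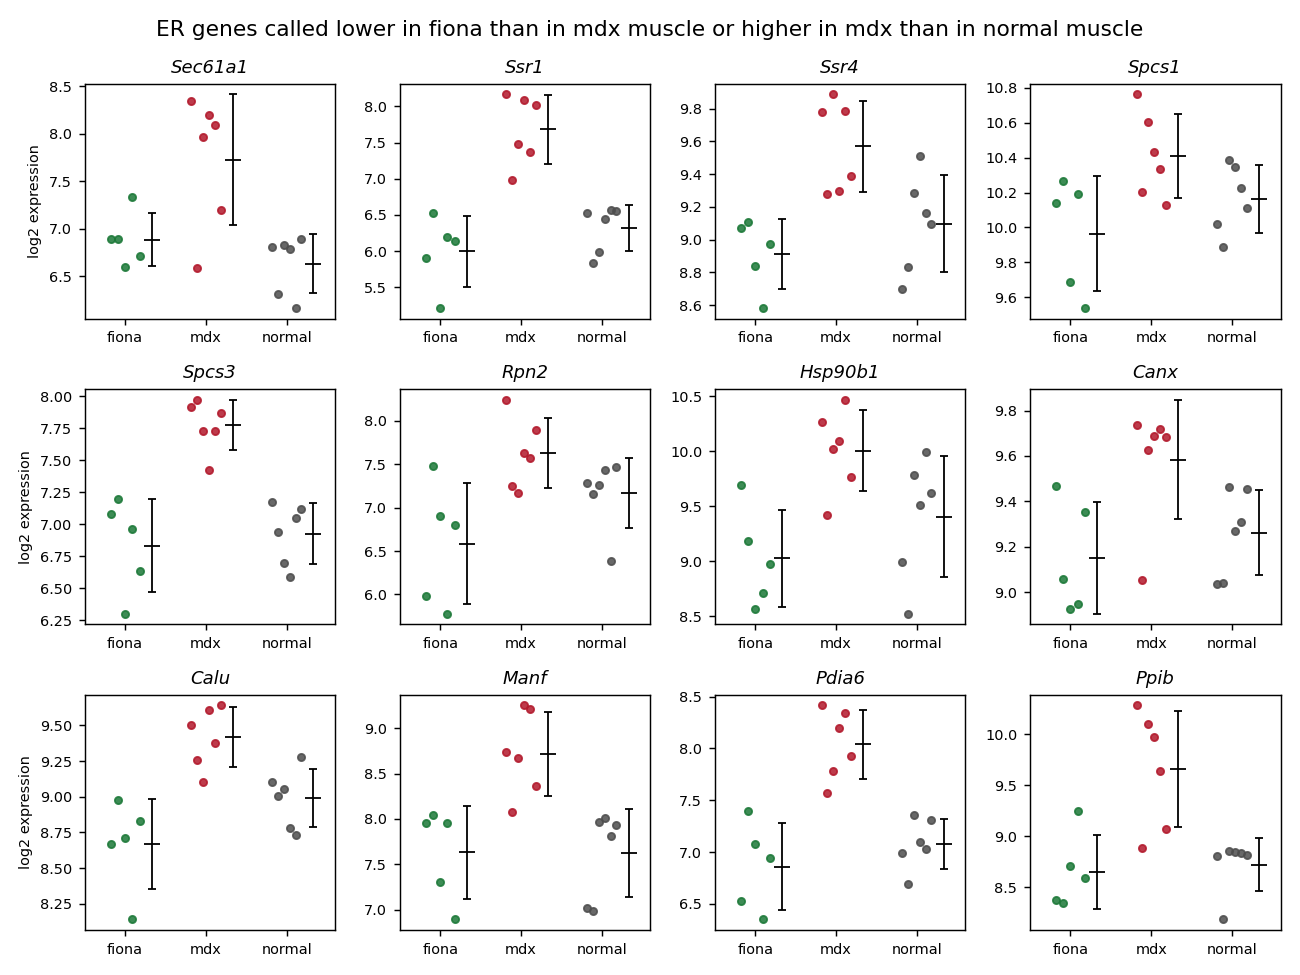
Log2 expression (vertical axes, not starting at 0) on each array for the 12 members with a lower call in fiona against mdx muscle, among them the 6 called higher in mdx than in normal muscle, with fiona, mdx and normal arrays from left to right. Points are arrays and bars beside them are means and SD (n = 5, 6 and 6); for Ssr1, Spcs3, Pdia6 and Manf the mdx points lie above both other groups, and for Canx mdx 2 at 9.05 lies among the lower groups.

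Chaperones of the reticulum are the classic targets of the unfolded protein response, which acts through short promoter elements. The first, ERSE, reads CCAAT, 9 bases of any kind and CCACG. It was searched on both strands in the 300 bases from 250 before to 50 after the gene start (RefSeq promoters, build GRCm38.p6), and 39 of 32851 promoters of that length held it (0.119%). Of the 42 members, 36 had a promoter in that table and 6 of them held ERSE: Hspa5, Hsp90b1 (at 2 places), Calr, Canx, Dnajc3 and Pdia6. The second, ERSE-II, reads ATTGG, 1 base of any kind and CCACG. It stood in 12 promoters (0.0365%) and in 2 members, Herpud1 and Dnajb11, and its letters do not overlap with those of ERSE here. The windows are shown to give the exact matches. A member with no exact match, or with no promoter in the table, can still be a target of the response. Capitals mark the element, the strand is that of the gene, and in Calr and in the nearer place of Hsp90b1 the element lies on the opposite strand. A match is a description and not a shown binding site.
Hspa5, chr2:34772005-34772063, plus strand: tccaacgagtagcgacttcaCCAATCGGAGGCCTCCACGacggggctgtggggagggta
Hsp90b1, chr10:86705618-86705676, minus strand: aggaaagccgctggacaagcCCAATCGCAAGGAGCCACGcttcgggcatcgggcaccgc
Hsp90b1, chr10:86705513-86705571, minus strand: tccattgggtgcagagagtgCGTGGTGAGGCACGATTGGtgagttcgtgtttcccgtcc
Calr, chr8:84847055-84847113, minus strand: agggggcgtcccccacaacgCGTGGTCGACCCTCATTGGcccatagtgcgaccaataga
Canx, chr11:50325780-50325838, minus strand: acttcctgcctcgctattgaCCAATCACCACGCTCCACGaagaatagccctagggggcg
Dnajc3, chr14:118937807-118937865, plus strand: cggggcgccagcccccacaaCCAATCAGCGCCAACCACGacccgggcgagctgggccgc
Pdia6, chr12:17266471-17266529, plus strand: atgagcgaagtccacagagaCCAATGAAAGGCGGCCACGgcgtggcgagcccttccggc
Herpud1 (ERSE-II), chr8:94386357-94386407, plus strand: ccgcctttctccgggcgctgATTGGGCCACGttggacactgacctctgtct

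The 6 members with ERSE had a median difference of -0.64 between fiona and mdx muscle (3 called lower, namely Hsp90b1, Canx and Pdia6) and of 0.60 between mdx and normal muscle (1 called higher, Pdia6). For the 30 other members with a promoter the medians were -0.27 and 0.24. These 30 lack an exact ERSE, which does not show that they are not targets. Herpud1 and Dnajb11, which hold ERSE-II, differed by -0.26 and -0.10 between fiona and mdx muscle and by -0.15 and 0.30 between mdx and normal muscle, without a call. Ssr1 and Ppib, which had calls in both comparisons, held neither element in this window. Sec61a1, Ssr2, Spcs3, Hyou1, Manf and Atf6 had no promoter in the table and were not searched, and 3 of them (Sec61a1, Spcs3 and Manf) also had calls in both comparisons.

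Among the 11 chaperones and co-chaperones, 4 were called lower in fiona against mdx muscle and 1 was higher in mdx than in normal muscle, at medians of -0.57 and 0.32. Hspa5 (BiP), the central chaperone and sensor partner of the stress response, measured 10.95, 9.49, 9.60, 10.35 and 9.93 on the fiona arrays, 9.85 to 11.50 on the mdx arrays (median 10.71) and 9.29 to 10.56 on the normal arrays (median 10.09). Its groups overlapped, with arrays of set 1 higher in each group. The difference was -0.69 between fiona and mdx muscle (95% interval -1.43 to 0.05, adjusted p = 0.127) and 0.72 between mdx and normal muscle (95% interval 0.02 to 1.43, adjusted p = 0.279). Its second probe set passed between fiona and mdx muscle (difference -0.79, adjusted p = 0.0492) and not between mdx and normal muscle (0.48, adjusted p = 0.336). With the array set as a block the differences were -0.59 and 0.72 (adjusted p = 0.0159 and 0.00857). The sets were defined from the residuals of this same fit, so a block on them lowers the residual spread by construction.

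Hsp90b1 (GRP94), which folds a narrower set of clients such as integrins and Toll-like receptors, measured 9.69, 9.18, 8.57, 8.72 and 8.98 on the fiona arrays, 9.42 to 10.47 on the mdx arrays (median 10.06) and 8.53 to 9.99 on the normal arrays (median 9.57). Only fiona 1 reached into the mdx range. The difference was -0.98 between fiona and mdx muscle (SE 0.27, 1.97-fold, adjusted p = 0.0152) and 0.60 between mdx and normal muscle (adjusted p = 0.237). With its 2 probe sets averaged, Hsp90b1 differed by -0.66 between fiona and mdx muscle and was not called (adjusted p = 0.259). Manf, a small secreted factor that binds BiP, measured 7.96, 8.05, 7.30, 7.95 and 6.90 on the fiona arrays, 8.08 to 9.25 on the mdx arrays (median 8.71) and 6.99 to 8.01 on the normal arrays (median 7.87). The mdx arrays lay above both other groups, by a narrow margin at the lowest mdx array. Its difference was -1.09 between fiona and mdx muscle (SE 0.28, adjusted p = 0.0137) and 1.10 between mdx and normal muscle (SE 0.27, adjusted p = 0.0272). The second of these calls was lost without mdx 1, mdx 4, mdx 5, normal 1 or normal 2, 5 of the 17 fits without 1 array (adjusted p up to 0.0687).

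Calu (calumenin), a calcium-binding protein of the reticulum, measured 8.67, 8.98, 8.71, 8.14 and 8.83 on the fiona arrays, 9.10 to 9.64 on the mdx arrays (median 9.44) and 8.73 to 9.28 on the normal arrays (median 9.03). Every fiona array was below every mdx array, with a difference of -0.75 (SE 0.14, adjusted p = 0.00649), and mdx differed from normal muscle by 0.42 (adjusted p = 0.101). Canx, the membrane-bound lectin chaperone calnexin, measured 9.47, 9.06, 8.93, 8.95 and 9.35 on the fiona arrays, 9.05 to 9.74 on the mdx arrays (median 9.68) and 9.04 to 9.46 on the normal arrays (median 9.29). Of the mdx arrays 5 were above all normal arrays, and mdx 2 at 9.05 lay among the lower groups. The difference was -0.43 between fiona and mdx muscle (SE 0.14, adjusted p = 0.0244) and 0.32 between mdx and normal muscle (adjusted p = 0.214). The call of Canx was lost without fiona 3, fiona 4 or mdx 5 (adjusted p up to 0.0639), with probe sets averaged (0.0627) and after quantile normalization (difference -0.29, adjusted p = 0.119). Calr, the soluble lectin chaperone calreticulin, differed by -0.59 and 0.60 (adjusted p = 0.22 and 0.362).

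The co-chaperones had differences of mixed sign and no call. Dnajb9, Dnajb11 and Dnajc3, J-domain partners of BiP, differed by -0.28, -0.10 and -0.57 between fiona and mdx muscle and by -0.22, 0.30 and 0.16 between mdx and normal muscle, and Sdf2l1, found in complexes with them, by -0.13 and 0.29. Hyou1 (GRP170), which recharges BiP with nucleotide, measured 4.39, 4.14, 6.08, 4.60 and 5.68 on the fiona arrays, 3.88 to 5.07 on the mdx arrays (median 4.07) and 4.01 to 4.40 on the normal arrays (median 4.14). Its high values stood on fiona 3 and 5 and on mdx 6. The difference of fiona from mdx muscle was 0.76 (adjusted p = 0.0618), opposite in sign to those of the other 10 members of the group. A dimmer probe set of Hyou1, with a mean of 3.25, passed over all probe sets (difference 0.40, adjusted p = 0.0227).

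Among the 7 disulfide and prolyl isomerases, 2 were lower and 1 higher in fiona than in mdx muscle, and 2 were higher in mdx than in normal muscle, with medians of -0.60 and 0.42. Pdia6, a disulfide isomerase that also attenuates the sensors Ire1 and PERK, measured 6.52, 7.39, 7.08, 6.35 and 6.94 on the fiona arrays, 7.57 to 8.42 on the mdx arrays (median 8.06) and 6.69 to 7.36 on the normal arrays (median 7.06). No fiona or normal array reached the mdx range. Its difference was -1.18 between fiona and mdx muscle (SE 0.20, 2.27-fold, adjusted p = 0.00226) and 0.96 between mdx and normal muscle (SE 0.19, 1.94-fold, adjusted p = 0.00608). Both calls held without any 1 of the arrays.

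Ppib (cyclophilin B), a prolyl isomerase that folds procollagen, measured 8.37, 8.34, 8.71, 9.24 and 8.59 on the fiona arrays, 8.88 to 10.29 on the mdx arrays (median 9.81) and 8.18 to 8.85 on the normal arrays (median 8.82). All mdx arrays were above all normal arrays, and fiona 4 reached into the mdx range. The difference was -1.01 between fiona and mdx muscle (SE 0.25, 2.01-fold, adjusted p = 0.0135) and 0.94 between mdx and normal muscle (SE 0.24, adjusted p = 0.0316). The second call was lost in 9 of 17 fits without 1 array, those without mdx 1, 3, 4 or 5 or normal 1, 2, 4, 5 or 6 (adjusted p up to 0.0763). A second probe set of Ppib, 1450911_at, gave -1.19 and 1.08 (adjusted p = 0.00124 and 0.00139 over all probe sets).

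P4hb, the protein disulfide isomerase that is also a subunit of collagen prolyl hydroxylase, averaged 9.49 ± 0.41 in fiona, 10.09 ± 0.46 in mdx and 9.45 ± 0.44 in normal muscle. It was not called over all arrays (differences -0.60 and 0.64, adjusted p = 0.0746 and 0.178). Its adjusted p-values with the array set as a block, 0.00063 and 0.000475, carry the same limit as those of Hspa5. P4hb was the 1 member called within array set 2 alone in each comparison (-0.70 and 0.63, adjusted p = 0.0415 and 0.0374). Pdia3 (ERp57), the isomerase that works with the lectin chaperones, differed by -1.21 between fiona and mdx and 0.42 between mdx and normal muscle (adjusted p = 0.0928 and 0.602) and spread from 6.03 on mdx 1 to 9.86 within the mdx group. Pdia4 and Ero1a, the oxidase that recharges the isomerases, differed by 0.27 and 0.01 between fiona and mdx muscle, without a call. Fkbp11, a prolyl isomerase, measured 3.17, 3.17, 3.98, 3.21 and 3.62 on the fiona arrays, 3.02 to 3.12 on the mdx arrays (median 3.06) and 3.05 to 3.20 on the normal arrays (median 3.12). All fiona arrays were above all mdx arrays, at a level close to the control level. The control level was also higher on the fiona arrays (2.753 to 2.991) than on the mdx arrays (2.647 to 2.750). Its difference of 0.37 between fiona and mdx muscle (adjusted p = 0.025) was 0.24 with centred arrays (adjusted p = 0.11) and 0.32 without fiona 5 (adjusted p = 0.0666).

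**Figure D3:**
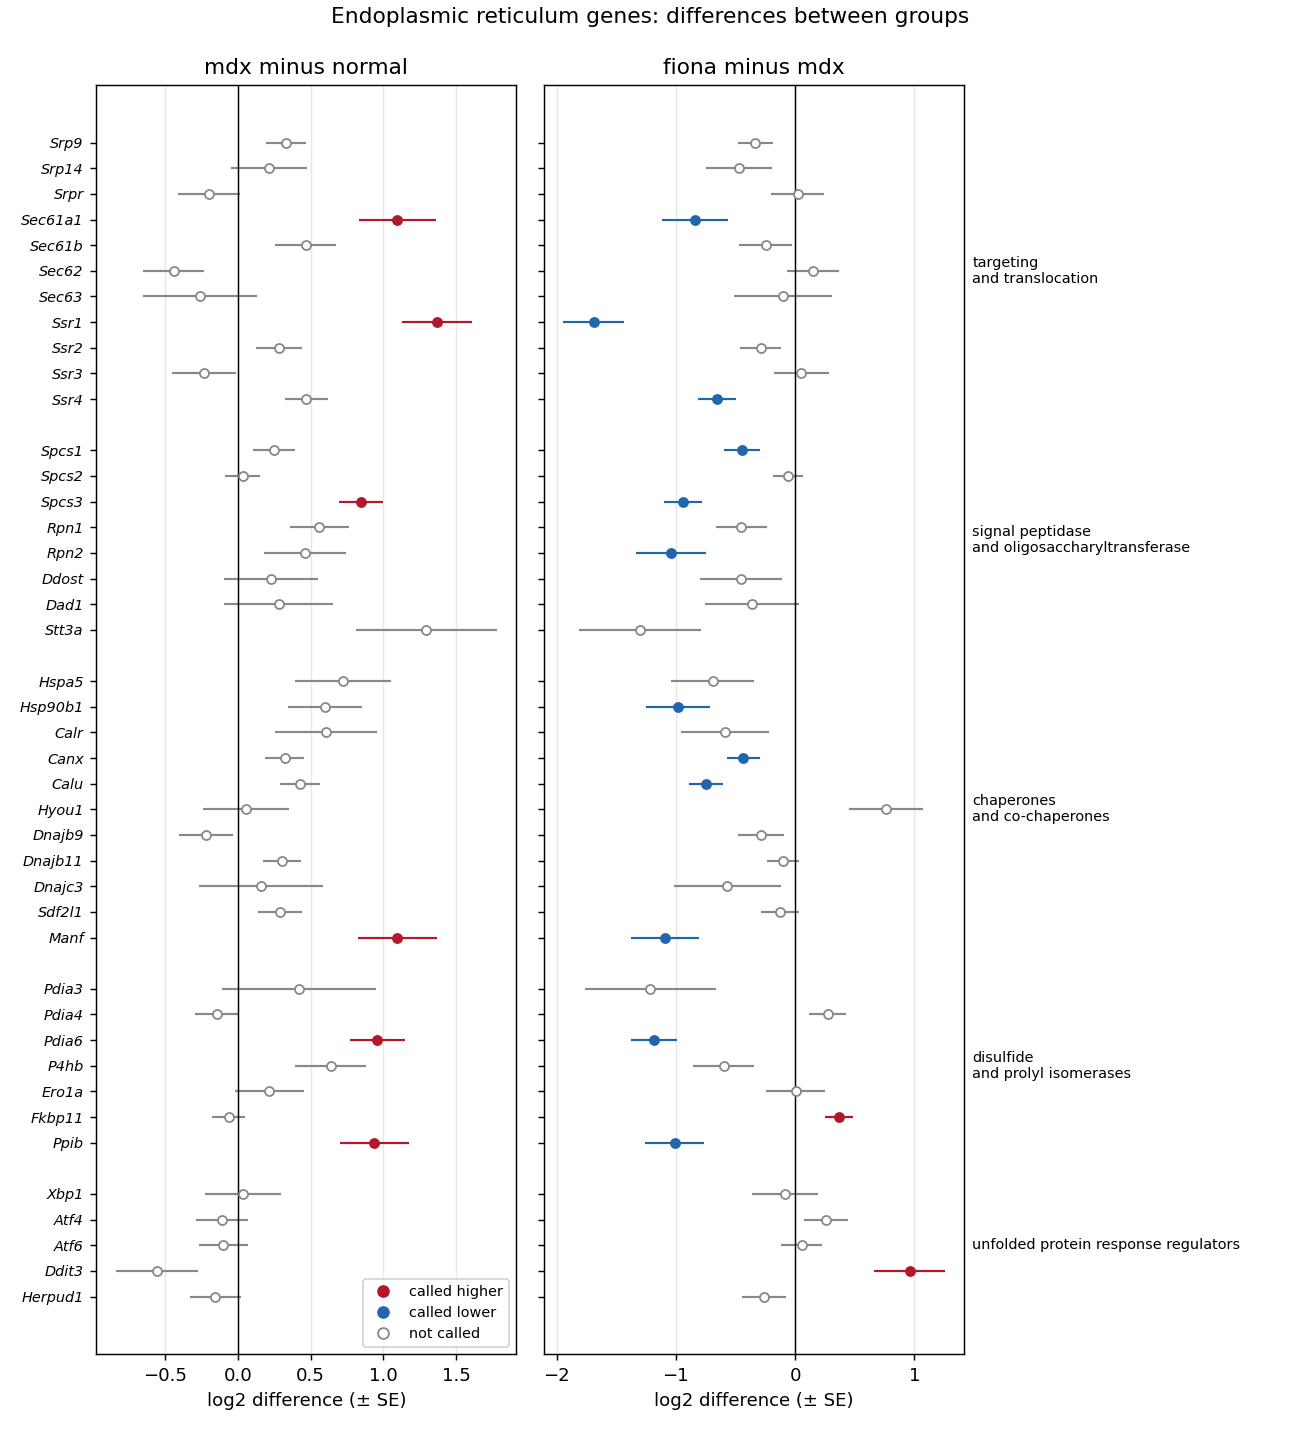
Differences of the 42 members on the log2 scale (horizontal axes) with their standard errors, for mdx minus normal on the left and fiona minus mdx on the right, grouped by role down the page. Filled points passed an adjusted p of 0.05 in limma (red higher, blue lower); most points lie right of 0 on the left and left of 0 on the right, except in the regulator group at the bottom.

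Of the 5 regulators of the unfolded protein response, 0 were called between mdx and normal muscle and 1 between fiona and mdx muscle (4.66% and 38.9% of all genes). Xbp1, the factor that Ire1 activates by splicing and a main driver of secretory capacity, measured 9.75, 8.77, 8.43, 9.61 and 8.53 on the fiona arrays, 8.43 to 9.66 on the mdx arrays (median 9.15) and 8.51 to 9.42 on the normal arrays (median 9.15). The ranges of the 3 groups overlapped almost wholly. Its difference was -0.09 between fiona and mdx muscle (95% interval -0.67 to 0.50) and 0.04 between mdx and normal muscle (95% interval -0.52 to 0.60). The other probe sets of Xbp1 disagreed, with differences of -0.34, -0.93 and 0.27 between fiona and mdx muscle. Between mdx and normal muscle they differed by 0.27, 0.77 and -0.02, in the same order. None of them passed in either comparison. Atf6, a membrane-bound factor released by cleavage, differed by 0.05 (95% interval -0.32 to 0.43) and -0.10 (-0.45 to 0.26). Herpud1, a degradation factor strongly induced by this response, differed by -0.26 (-0.65 to 0.13) and -0.15 (-0.52 to 0.22). The splicing of Xbp1 and the cleavage of Atf6 were not measured. The RNA levels of Xbp1 and Atf6 therefore cannot show whether the response was active.

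Atf4, the transcription factor of the PERK arm, measured 9.63, 10.09, 10.16, 9.53 and 9.93 on the fiona arrays, 9.11 to 9.90 on the mdx arrays (median 9.66) and 9.40 to 10.27 on the normal arrays (median 9.64). Its groups overlapped, with differences of 0.26 between fiona and mdx muscle (95% interval -0.13 to 0.66) and -0.11 between mdx and normal muscle (95% interval -0.48 to 0.27). Ddit3 (CHOP), a target of Atf4 that promotes cell death under lasting stress, measured 7.17, 7.79, 7.20, 7.66 and 8.06 on the fiona arrays, 5.94 to 7.42 on the mdx arrays (median 6.59) and 6.49 to 7.74 on the normal arrays (median 7.21). Of the fiona arrays, 3 lay above all mdx arrays. It was higher in fiona than in mdx muscle (difference 0.96, SE 0.30, 1.95-fold, adjusted p = 0.022), and mdx differed from normal muscle by -0.56 (95% interval -1.16 to 0.04, adjusted p = 0.327). The call of Ddit3 was lost without fiona 5 (adjusted p = 0.0593) and with centred arrays (difference 0.84, adjusted p = 0.0817).

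**Figure D4:**
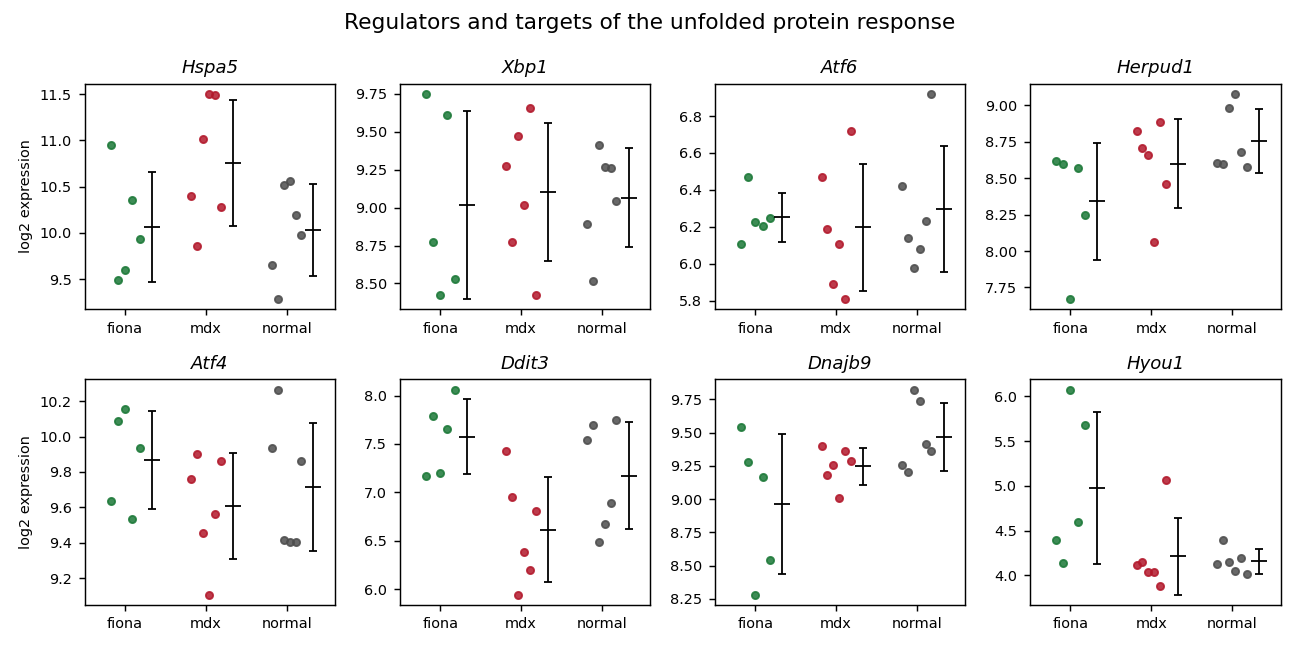
Log2 expression (vertical axes, not starting at 0) of Hspa5, Xbp1, Atf6, Herpud1, Atf4, Ddit3, Dnajb9 and Hyou1 on the fiona, mdx and normal arrays from left to right. Points are arrays and bars are means and SD (n = 5, 6 and 6); the Xbp1, Atf6 and Atf4 groups overlap, Ddit3 is higher on fiona than on mdx arrays, and the high Hyou1 points are fiona 3 and 5 and mdx 6.

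The number of calls changed with the array sets. With the set as a block, where the residual spread is lowered by construction, 18 members were lower and 2 higher in fiona than in mdx muscle, where 9.48% and 34.1% of all genes were, and 13 were higher and 1 (Sec62) lower in mdx than in normal muscle, where 5.73% and 4.26% were. Within set 1 alone, 15 members were lower and 3 higher in fiona than in mdx muscle (6.43% and 28.2% of all genes), and 9 were higher and 1 lower in mdx than in normal muscle (5.56% and 15.1%). Within set 2 alone, 1 member was lower and 0 higher in fiona than in mdx muscle (0.783% and 0.105%), and 1 was higher and 0 lower in mdx than in normal muscle (1.39% and 0.807%). None of the 6 and 12 calls over all arrays passed within set 2, and all kept their sign there. Between mdx and normal muscle, Ssr1, Spcs3, Pdia6 and Manf differed by 1.42, 0.84, 0.97 and 1.08 within set 2. Over all arrays these values were 1.37, 0.85, 0.96 and 1.10. Sec61a1 and Ppib differed by 0.71 and 0.81 there, against 1.10 and 0.94. Each set alone holds fewer arrays, so its counts cannot be set directly against those over all arrays.

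Without the 7 arrays with the female pattern, which leave 1 fiona array, Spcs3, Rpn2, Calu and Pdia6 of the 12 kept their call between fiona and mdx muscle, and Ssr1, Spcs3 and Pdia6 of the 6 kept it between mdx and normal muscle. The lone fiona array is then assumed to vary like the other groups. The difference between fiona and mdx muscle was then -0.13 for Sec61a1, -0.12 for Spcs1, -0.18 for Ppib and -0.63 for Manf, each over 1.5 times smaller than with all arrays. Leaving out any of mdx 1, mdx 4, mdx 5 or normal 2 also brought the count between mdx and normal muscle to 3, again Ssr1, Spcs3 and Pdia6. Without mdx 1, which stood apart, 10 of the 12 calls between fiona and mdx muscle were kept, all but Sec61a1 and Spcs1. The female pattern was uneven between the groups, on 4 fiona, 2 mdx and 1 normal array. With it as a covariate on all 17 arrays, the 12 lower calls between fiona and mdx muscle were kept. So were the 6 higher calls between mdx and normal muscle, while Ddit3 and Fkbp11 lost theirs.

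Related genes of the same pathway, from lists of 190 genes of which 160 were measured, were counted in the same way. Between fiona and mdx muscle 35 were called lower and 10 higher, at a median of -0.23, and between mdx and normal muscle 11 were higher and 3 lower, with a median of 0.15. Over all genes, also for the lists below, 6.79% were lower and 32.1% higher in the first comparison. In the second 3.22% were higher and 1.44% lower. In either direction 28.1% of the 160 were called in the first comparison, against 38.9% of all genes. In the second these shares were 8.75% and 4.66%. Of 20 other translocation genes, 6 were lower and 1 higher in fiona than in mdx muscle, and 3 were higher and 1 lower in mdx than in normal muscle. Ckap4, which shapes the sheets of the rough reticulum, differed by -1.92 and 2.27 (adjusted p = 0.00226 and 0.000262). Sec11a, the catalytic subunit of signal peptidase, differed by -1.32 and 0.78 (adjusted p = 0.00198 and 0.0399), and Tram1, which sits beside the channel, by -0.90 and 0.75 (adjusted p = 2.9e-05 and 7.41e-05). The mdx arrays of these 3 genes did not overlap with the fiona or the normal arrays. Of 21 other glycosylation genes, 1 was lower and 2 higher in fiona than in mdx muscle and 1 was higher in mdx than in normal muscle. That one was Ostc, an oligosaccharyltransferase subunit (differences -1.03 and 0.89, adjusted p = 0.0112 and 0.0199).

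Of 33 other folding genes, 13 were lower and 1 higher in fiona than in mdx muscle and 4 were higher in mdx than in normal muscle. Creld2, a disulfide isomerase whose promoter also holds ERSE, differed by -1.14 and 1.10 (adjusted p = 0.0135 and 0.0186), and Ppic, cyclophilin C, by -1.20 and 1.15 (adjusted p = 0.0133 and 0.014). Of 35 genes of transport to the Golgi, 10 were lower and 1 higher in fiona than in mdx muscle, and 3 were higher and 1 lower in mdx than in normal muscle. Kdelr3, which returns escaped chaperones from the Golgi, differed by -1.38 and 1.44 (adjusted p = 0.0152 and 0.0319). The coat subunit Sec24d was at or under the control level on all fiona and all normal arrays and above it on 5 of 6 mdx arrays.

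Of 25 genes of degradation from the reticulum, 0 were called between mdx and normal muscle (7 at an unadjusted p under 0.05) and 2, Sel1l and H13, were lower in fiona than in mdx muscle (differences -0.71 and -0.56, adjusted p = 0.0205 and 0.0279). Of 26 other stress response genes, 3 were lower and 5 higher in fiona than in mdx muscle, and 1 was lower in mdx than in normal muscle. That gene was Chac1, a glutathione-degrading target of Atf4 and Ddit3, which averaged 6.31 ± 0.99 in fiona, 6.00 ± 0.81 in mdx and 8.16 ± 0.87 in normal muscle (mdx minus normal -2.17, adjusted p = 0.0176). All 6 mdx arrays of Chac1 lay below all 6 normal arrays.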

How the data were processed

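The authors deposited log2 values, 1 for each probe set, from 17 Affymetrix arrays (5 fiona, 6 mdx, 6 normal). RMA and GCRMA are both named, per the submitters' processing notes, without saying which gave the deposited values. Of 22690 probe sets, 64 controls, 691 with several symbols and 1555 with none were left out, and 20380 with 1 symbol covered 12393 genes. The probe set with the highest average stood for a gene, and no filter on level was set. Groups were compared with limma 3.58.1 under R 4.3.3 (1 fit with the means of the 3 groups, moderated by eBayes), with Benjamini-Hochberg adjustment across the 12393 genes. Calls were made at an adjusted p below 0.05. All adjusted p-values are from this fit unless another setting is named. Single probe sets were adjusted over 20380 probe sets. The p-values measure the spread between arrays labelled as biological replicates, and precision is limited by how many arrays there are.

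Members, gene lists and alternatives were chosen with earlier results of these data known. Values per array are given for members called in any comparison and for Hspa5, Xbp1, Atf4 and Ddit3, and Hyou1 was added after its values were seen. From the 6 lists of pathway genes and the 13 lists of cell markers, up to 3 called genes per comparison with the largest change could be named. The array sets are the sign of the first component of the residuals and were defined from the data. Deviations of same-numbered arrays correlated at 0.0876 to 0.605 between mdx and normal, where numbers 3, 4 and 5 fall in set 1 in both groups, at -0.423 to 0.295 between fiona and mdx and at -0.488 to 0.483 between fiona and normal. Since not every pair in a comparison was over 0.1, the numbers were not taken as pairs. Alternatives were another probe set rule, scaling, a filter on dim genes, fewer groups in the fit, an intensity trend, blocks, covariates and leaving out arrays. The fit was tested on simulated data with noise drawn independently for each gene. That noise lacks the shared component of the real residuals (42.5% of the variance left). The simulation therefore cannot show the rate of false calls in these data. Promoters came from RefSeq, build GRCm38.p6, and the protein sequences of the members were not used here. Plots were made in matplotlib 3.10.9 (Python 3.11.15).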

Additional observations from a re-analysis of the deposited data

Results flagged for a closer look

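In 8 of 126 groups of arrays (42 members in 3 groups) the highest or lowest array stood far from the nearest of the others by Dixon's criterion, and chance alone gives about 1 in 20 groups. The arrays concerned were normal 5 with 3 members, mdx 1 with 2, and mdx 2, mdx 6 and normal 2 with 1 each. Array mdx 1 had the highest mdx values of Sec61b (9.70, next 8.62) and Sdf2l1 (4.56, next 3.92), and it is the array with the raised Gapdh 3′ signal. Canx was lowest on mdx 2 (9.05, next 9.62), and Hyou1 was highest on mdx 6 (5.07, next 4.15). Array normal 5 had the lowest normal values of Ssr2 (6.86, next 7.14), Rpn2 (6.38, next 7.16) and Sdf2l1 (3.02, next 3.68). Ppib was lowest on normal 2 (8.18, next 8.80), and its call between mdx and normal muscle was lost without that array (adjusted p = 0.0763).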

How the results depend on the processing

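Changes of sign were counted only for called members. All 6 and 12 members called higher in mdx than in normal and lower in fiona than in mdx muscle kept their sign in the 29 alternatives run on each comparison, though without the arrays of female pattern Sec61a1, Spcs1 and Ppib differed by only -0.13, -0.12 and -0.18 between fiona and mdx muscle. Leaving out 1 array gave 3 to 7 members higher and 0 lower in mdx than in normal muscle (all genes 307 to 503 and 122 to 189, member median 0.21 to 0.34). It gave 9 to 14 lower and 0 to 3 higher in fiona than in mdx muscle (all genes 573 to 973 and 2618 to 4369, median -0.43 to -0.31), with 0 higher and 2618 genes without fiona 5. Between fiona and normal muscle it gave 0 members, 0 to 856 genes higher and 0 to 118 lower, the most without fiona 2, and a median of -0.12 to -0.02.

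Between mdx and normal muscle, the mean of probe sets gave 269 genes lower and centred arrays 117. The array set as a block gave 13 members higher and 1 lower (710 and 528 genes), set 1 alone 1 member lower (689 and 1876 genes), and set 2 alone 1 member higher (172 and 100 genes). Without the arrays of female pattern 3 members and 259 genes were higher. Between fiona and mdx muscle, centred arrays gave 0 members and 654 genes higher, quantile normalization 1 member and 1336 genes higher with a member median of -0.24, and the filter on dim genes 1392 genes higher. A fit of the 2 groups alone gave 1 member higher and 558 genes lower. Set 1 alone gave a member median of -0.24, and set 2 alone gave 0 members higher and 1 lower (13 and 97 genes). With the female pattern as a covariate 0 members were higher, and the 12 members called lower kept their calls. Without those arrays 0 members were higher and 5 lower (1226 and 360 genes), with a median of -0.19. Between fiona and normal muscle, the mean of probe sets gave 1 gene lower, the array set as a block 3 higher and 16 lower, set 1 alone 16 and 13, set 2 alone 5 lower, and the arrays without female pattern 332 and 134. Quantile normalization gave a member median of 0.0817. The cause of these changes was not tested.

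With the array number as a replicate block, 5 members were higher in mdx than in normal muscle, and 5 were lower and 1 higher in fiona than in mdx muscle (324 and 185 genes), with 1 gene lower between fiona and normal muscle. An array correlated best with its own number for 1 of 6 numbers between mdx and normal and for 0 of 5 in each comparison with fiona.

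Other probe sets of called members, tested after the data were seen, had the opposite sign for Ssr1 between mdx and normal muscle (-0.81) and, between fiona and mdx muscle, for Sec61a1 (0.0185), Ssr1 (0.12), Ssr4 (0.0329 and 0.0524), Spcs1 (0.11, adjusted p = 0.0405), Pdia6 (0.0532) and Fkbp11 (-0.0396). Those of Ssr4 at 0.0329 and of Pdia6 were at or under the control level on every array.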

Other observations

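Several members differed between the 2 array sets in the same direction in the fiona, mdx and normal groups, by more than 0.3 on the log2 scale in each. Srp14, Sec62, Sec63, Stt3a, Hspa5, Dnajc3, Manf and Xbp1 were higher in set 1, and Srpr, Ssr3, Ddost, Dad1, Calr, P4hb and Atf4 were higher in set 2. These are 15 of 42 members (35.7%), and 20.2% of the 9192 genes above the control level showed such a pattern. In Hspa5 the difference of set 1 from set 2 was 0.97 in fiona, 1.16 in mdx and 0.79 in normal muscle, and in Dad1 it was -1.23, -1.10 and -1.14. The sets were defined from the arrays themselves, so these values are a description.

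The same promoter elements stood in a few of the 133 related pathway genes with a promoter in the table. ERSE was found in 5 of them, Alg12, Creld2, Derl3, Ero1b and Syvn1, and ERSE-II in 2, Krtcap2 and Nucb1.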
